A study of Bos taurus with 12 samples.

Results

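The 8 genes described here, ACAT2, HMGCS1, MVK, IDI1, FDPS, SQLE, CYP51A1 and MSMO1, encode enzymes of the mevalonate and sterol synthesis route, and they are 8 of the 18436 genes with expression values in this bovine data set. They were chosen by gene name with their FPKM in DM against GM known, and every expression difference of the 8 is therefore a description, without a test. The cells were primary myoblasts of Qinchuan cattle, isolated at birth from the longissimus dorsi muscle, and were studied in 2 states. GM cells grew in DMEM/F12 with 20% fetal bovine serum to 80% confluence, and DM cells, at 100% confluence, had been kept for 4 days in differentiation medium with 2% horse serum, which turns myoblasts into myotubes. Serum, confluence, time in culture and differentiation all differ between the states together, so their parts in any difference cannot be told apart. The labels name no genetic change and no added compound in either state, and the study's methods name a single newborn animal as their source, so the spread between libraries does not contain the spread between animals. Each state had 3 input libraries, which gave gene expression as FPKM (fragments scaled by exon length and by mapped reads), and 3 libraries of RNA immunoprecipitated with an antibody against N6-methyladenosine (m6A), the methyl mark on internal adenosines of mRNA.

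The mevalonate route builds isoprene units from acetyl-CoA. Condensation of these units gives farnesyl diphosphate, from which the cell makes cholesterol by way of squalene and lanosterol, and also prenyl groups, dolichol and ubiquinone. In animal cells the genes of the route are controlled together by SREBP2, a membrane-bound transcription factor that is released when sterol in the endoplasmic reticulum is low. Myotubes form when the membranes of myoblasts fuse.

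The input libraries were close to each other, with correlations of log2(FPKM + 1) of 0.995 to 0.997 within GM, 0.997 within DM and 0.981 to 0.983 between the states. Of 10 myotube markers 7 were called higher in DM by limma at the study's thresholds (fold change above 1.5 and p under 0.05 before adjustment), with MYH3 at 269.9 to 275 FPKM in GM and 642 to 670 in DM, and 1, ACTA1, was called lower (-0.64 on the log2 scale; -0.53 without GM replicate 3, -0.51 without DM replicate 2, -0.52 in TPM and -0.58 with size factors, all under the fold threshold). MYOG, which marks cells that have begun to differentiate, was already at 190.4 to 207 FPKM in GM. Of 6 myoblast markers 3 (PAX7, MYF5 and MYOD1) were called lower. All 6 proliferation markers were lower in DM, and their summed FPKM was 90.2 to 99.6 in GM and 18.4 to 21.9 in DM. Fibroblast markers except TCF21 (means of 2.15 FPKM in GM and 1.68 in DM) were abundant in both states. None of 7 was called by limma (3 had an unadjusted p under 0.05 toward DM and 1 toward GM). Their summed level was 10284 to 10431 FPKM in GM and 11635 to 12199 in DM. Most of it was COL1A1 (means of 6791 and 7420) and COL3A1 (2397 and 3135). Adipocyte markers summed to 2.55 to 2.75 FPKM in GM and 1.87 to 2.43 in DM. Endothelial markers summed to at most 0.340 FPKM. Of the hepatocyte markers, TTR was higher in DM by 1.76 on the log2 scale, at 3.60 to 3.74 FPKM, whereas ALB was at or near 0 and APOA1 was not called, at 1.84 to 2.01 FPKM in GM and 1.30 to 2.00 in DM. Whether fewer cells of a type or less RNA per cell lies behind a level cannot be told apart in bulk RNA.

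In 7 of the 8 genes all 3 DM libraries lay above all 3 GM libraries, and in MVK all 3 GM libraries lay above DM. Of the 12302 tested genes, whose mean was 0.5 FPKM or more, 21.1% had all DM libraries above GM and 33.0% all GM libraries above DM. The median difference of the 8 genes was 1.63 on the log2(FPKM + 1) scale, beside -0.05 over all tested genes. Together they summed to 85.3 to 86.5 FPKM in the GM libraries and to 226 to 245 in the DM libraries. Nothing is read from these counts, since the contrast served to choose the genes.

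**Figure D1:**
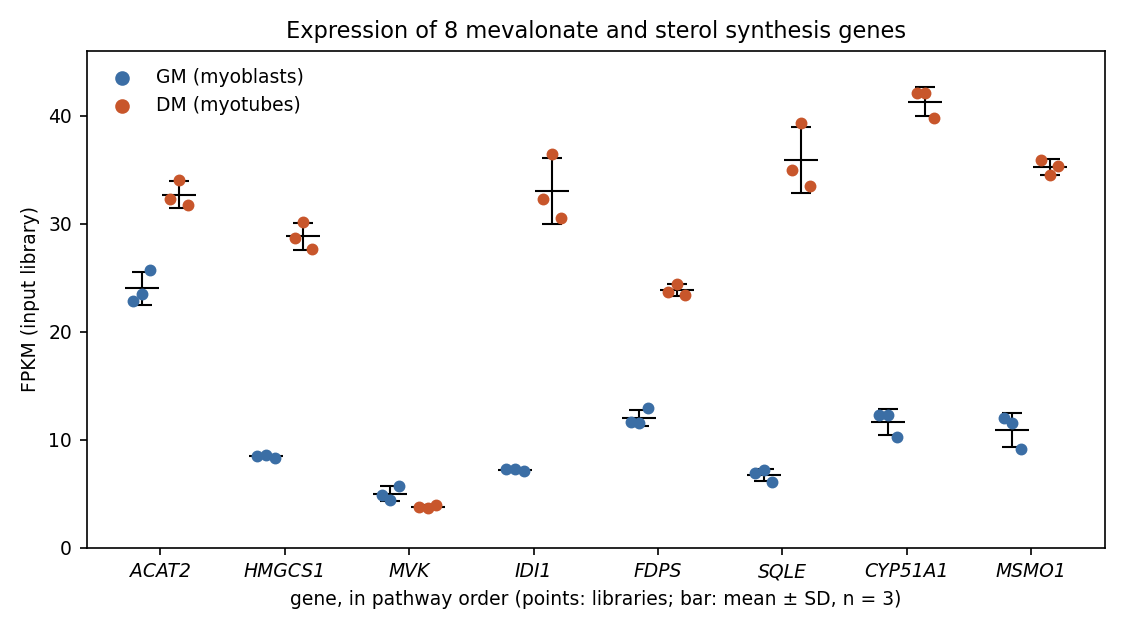
FPKM (vertical axis, linear from 0) of the 8 genes in pathway order; points are the 3 GM and 3 DM input libraries, and the bars give the mean ± SD. MVK is the only gene of the 8 with its GM libraries on top, and SQLE, at 6.08 to 7.23 FPKM in GM and 33.5 to 39.3 in DM, has the widest relative gap.

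The first steps join acetyl-CoA units. ACAT2 (chr9:96029107-96044723, plus strand, assembly ARS-UCD1.2), the cytosolic acetyl-CoA acetyltransferase, was at 22.8, 23.5 and 25.7 FPKM in GM and at 32.3, 34.1 and 31.8 in DM. Its mean was 24.0 ± 1.51 in GM and 32.7 ± 1.21 in DM (SD, n = 3 per state, as for all means below), 1.36-fold higher in DM, so ACAT2 had the highest GM level of the 8 genes and the smallest excess of DM over GM among the 7. The last 85 bases of ACAT2 overlap TCP1 on the opposite strand, a gene at a mean of 102.8 FPKM. The libraries were strand-specific, but the strand setting of the quantification is not given in the sources used here, and its part in the ACAT2 level was not tested. HMGCS1 (chr20:31431008-31456871, plus strand), the cytosolic HMG-CoA synthase, was at 8.54, 8.57 and 8.34 FPKM in GM and at 28.7, 30.1 and 27.7 in DM. The means of 8.48 ± 0.128 and 28.8 ± 1.22 differed 3.40-fold.

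MVK (chr17:63607270-63628642, minus strand), mevalonate kinase, ran the other way. It was at 4.92, 4.38 and 5.75 FPKM in GM and at 3.79, 3.70 and 3.96 in DM, with means of 5.02 ± 0.689 and 3.81 ± 0.131, 1.32-fold higher in GM. It had the lowest level of the 8 genes in both states. The difference of -0.32 on the log2 scale shrank to -0.23 without GM replicate 3, its highest library. It was -0.39 to -0.23 over the 14 settings computed. Those that alter only the gene filter, the replicate block or the variance model cannot move it.

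IDI1 (chr13:46325275-46328399, plus strand), the isopentenyl-diphosphate isomerase, was at 7.30, 7.26 and 7.14 FPKM in GM and at 32.3, 36.4 and 30.5 in DM. Its means of 7.23 ± 0.0802 and 33.1 ± 3.04 differed 4.57-fold. FDPS (chr3:15311058-15320377, minus strand), which makes farnesyl diphosphate, was at 11.7, 11.6 and 12.9 FPKM in GM and at 23.7, 24.4 and 23.4 in DM. Its ratio of means was 1.98, less than that of either IDI1 before it or SQLE after it in the route.

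SQLE (chr14:15144664-15167777, minus strand), the squalene monooxygenase that makes the first oxygenated sterol precursor, had the widest gap. It was at 6.91, 7.23 and 6.08 FPKM in GM and at 35.0, 39.3 and 33.5 in DM, with means of 6.74 ± 0.594 and 35.9 ± 3.05, a ratio of 5.33. CYP51A1 (chr4:9459764-9476713, minus strand), the lanosterol 14-alpha-demethylase, was at 12.3, 12.3 and 10.2 FPKM in GM and at 42.0, 42.1 and 39.7 in DM, 3.55-fold higher. It was the most abundant of the 8 in DM, with every DM library above every value of the other 7 genes. MSMO1 (chr17:517313-534143, plus strand), the methylsterol monooxygenase, was at 12.0, 11.5 and 9.11 FPKM in GM and at 35.9, 34.5 and 35.4 in DM, 3.24-fold higher.

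The order of levels changed between the states. In GM, ACAT2 stood above FDPS, CYP51A1 and MSMO1, whose neighbours overlapped, and these above HMGCS1, then IDI1 and SQLE, which overlapped, then MVK. In DM, CYP51A1 stood above SQLE, MSMO1, IDI1 and ACAT2, each of which overlapped its neighbour in the order, followed by HMGCS1, FDPS and MVK. By size alone, with no test, 6 of the 8 genes were over 1.5-fold higher in DM on the log2(FPKM + 1) scale, and ACAT2 and MVK lay within 1.5-fold. The contrast served to choose the genes, so nothing is read from this count. Over all tested genes, 4.90% passed the same fold together with a limma p under 0.05. FDPS, at 0.93 on the log2 scale, was the nearest gene inside the fold threshold, and ACAT2, at 0.43, the nearest outside.

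The other enzymes of the route were tested with limma, and they were listed without regard to their direction but with earlier results of these data known. Of all tested genes, 4.90% were called higher in DM and 6.97% lower. Of 9 reported here, 4 were called higher in DM, 1 lower and 4 did not pass, with a median of 0.46 on the log2 scale. NSDHL and EBP were not analysed here.

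The enzymes that follow MVK, PMVK and MVD, phosphorylate and decarboxylate its product. PMVK was 3.18 to 3.35 FPKM in GM and 3.63 to 4.29 in DM, a difference of 0.24 (adjusted p = 0.029). MVD was 5.40 to 7.03 FPKM in GM and 8.26 to 8.86 in DM, a difference of 0.46 (adjusted p = 0.0040), and neither reached the fold threshold. The 3 consecutive enzymes MVK, PMVK and MVD had the smallest log2 differences of the mevalonate steps reported here apart from ACAT2, at -0.32, 0.24 and 0.46.

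On the way from farnesyl diphosphate to lanosterol, both other enzymes, FDFT1 and LSS, rose. FDFT1, squalene synthase, which commits farnesyl diphosphate to sterols, was at 7.28, 6.36 and 6.89 FPKM in GM and at 23.7, 25.7 and 20.9 in DM, a rise of 1.64 ± 0.083 (adjusted p = 2.7e-06). LSS, lanosterol synthase, was 3.33 to 3.67 FPKM in GM and 6.78 to 8.32 in DM, a rise of 0.95 (adjusted p = 4.6e-05).

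From lanosterol to cholesterol the enzymes were mixed. DHCR7, which acts at the end of the route, rose by 1.07 ± 0.094 (adjusted p = 5.6e-05), from 7.00 to 7.79 FPKM in GM to 15.0 to 19.5 in DM. SC5D, the lathosterol desaturase, rose by 0.74 (adjusted p = 7.3e-05), from 13.2 to 15.3 FPKM to 23.8 to 26.2. The steps without a call included TM7SF2, a sterol 14-reductase, with a difference of 0.19 (adjusted p = 0.16) and reads that could be shared with VPS51, which overlaps it on the same strand by 1304 bases. HSD17B7, a sterol ketoreductase, differed by 0.18 (adjusted p = 0.14), and its groups overlapped.

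LBR, a nuclear envelope protein that also has sterol 14-reductase activity, was the only other enzyme called lower. It was at 7.78, 8.66 and 6.19 FPKM in GM and at 4.44, 4.49 and 4.58 in DM, a difference of -0.62 ± 0.104 (adjusted p = 0.0018). The fold change fell under the threshold without GM replicate 2, at -0.53, and after scaling to TPM or to size factors, at -0.57 each. The 17 enzymes together summed to 142 to 145 FPKM in GM and to 320 to 353 in DM.

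**Figure D2:**
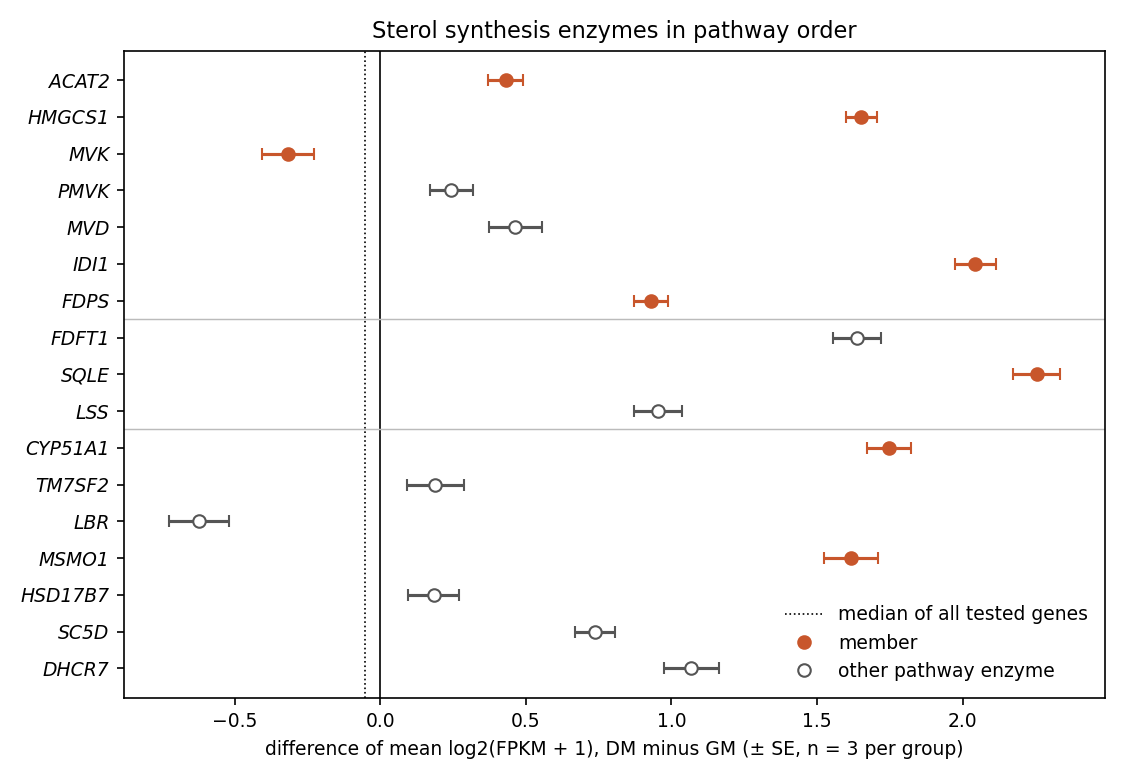
Difference of mean log2(FPKM + 1), DM minus GM, with its SE (n = 3 per state) for 17 enzymes from the top of the route to its end; filled points are the 8 genes described, open points the other enzymes, and horizontal lines part the mevalonate steps, the steps to lanosterol and the steps to cholesterol. MVK at -0.32 and LBR at -0.62 are the only enzymes left of 0, and the dotted line marks the median of all tested genes at -0.05.

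The KEGG annotation carried by the expression table sets these genes among their neighbours. Of 9 genes annotated to steroid biosynthesis and reported here, the 8 described left out, 4 were called higher and none lower (1 had an unadjusted p under 0.05 toward GM), with a median of 0.19. These 4 were DHCR7, FDFT1, LSS and SC5D, already counted above among the other enzymes, so the count is not a separate result. Of 14 annotated to terpenoid backbone biosynthesis, again without the 8, none was called higher by limma (2 had an unadjusted p under 0.05 toward DM and 7 toward GM) and 1, ACAT1, was called lower, with a median of -0.16. The enzymes of the branches that leave the route were also taken as a list of their own, which shares many genes with the terpenoid annotation. Among 11 enzymes that attach or extend isoprenoids, including the prenyltransferases and those for dolichol and ubiquinone, none was called higher, and an unadjusted p under 0.05 was reached by none toward DM and by 6 toward GM, of which 4 had an adjusted p under 0.05. Beside this, 3861 of all 12302 tested genes had an unadjusted p under 0.05 toward GM, and 3288 an adjusted p under 0.05. Toward DM these counts were 2380 and 1980. RABGGTB, a subunit of the Rab geranylgeranyl transferase, was called lower. RABGGTB was 32.7 to 35.2 FPKM in GM and 19.9 to 24.2 in DM, a difference of -0.60 (adjusted p = 3.4e-04) that fell under the fold threshold without GM replicate 1 (-0.58), without DM replicate 2 (-0.53), in TPM (-0.49) and with size factors (-0.54). GGPS1, which makes geranylgeranyl diphosphate from the product of FDPS, was 12.6 to 15.4 FPKM in GM and 10.9 to 12.8 in DM and was not called. ACAT1, the mitochondrial relative of ACAT2, moved against it, from 60.2 to 62.1 FPKM in GM to 35.3 to 37.3 in DM, a fall by 0.72 on the log2 scale (adjusted p = 9.7e-06).

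Of 9 tested genes that control the route through SREBP, 2 were called, both higher in DM. SREBF2, which encodes SREBP2, was at 12.2, 12.1 and 11.5 FPKM in GM and at 24.0, 26.3 and 23.9 in DM, a rise of 0.99 (adjusted p = 5.7e-06). INSIG1, which holds the SREBP complex in the endoplasmic reticulum and is itself an SREBP target, was 2.07 to 2.53 FPKM in GM and 4.51 to 5.52 in DM, a rise of 0.89 (adjusted p = 1.0e-04). SREBF1, the paralogue best known for fatty acid synthesis, was 4.80 to 4.97 FPKM in GM and 3.77 to 4.86 in DM, a difference of -0.11 (adjusted p = 0.33).

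Of 5 genes of cholesterol uptake and transport reported here, none was called higher by limma (2 had an unadjusted p under 0.05 toward DM). NPC2, a carrier of cholesterol out of lysosomes, was called lower, at 120.4 to 137 FPKM in GM and 80.4 to 88.4 in DM, a difference of -0.61 (adjusted p = 1.3e-04). Its fold change fell under the threshold without GM replicate 1 (-0.57), without DM replicate 1 (-0.58), in TPM (-0.49) and with size factors (-0.55). Of 5 tested genes of the sterol-sensing LXR receptors and of cholesterol efflux, only ABCA1, the efflux transporter, was called. It stood at 2.05 to 2.41 FPKM in GM and at 0.643 to 0.730 in DM, a difference of -0.95 on the log2 scale (adjusted p = 3.7e-05). None of 3 tested genes for cholesterol esters and oxysterols was called with limma, and 0 had an unadjusted p under 0.05. The most abundant were SOAT1 at -0.15 and CYP27A1 at 0.01 on the log2 scale.

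In fatty acid synthesis, which starts from the same acetyl-CoA, 2 of 9 genes were called higher and none lower (4 had an unadjusted p under 0.05 toward DM and 1 toward GM). SCD, the stearoyl-CoA desaturase, was 6.27 to 7.39 FPKM in GM and 13.1 to 13.7 in DM, a rise of 0.87 (adjusted p = 2.6e-05). ELOVL5 rose by 0.59 (adjusted p = 1.5e-04), just past the threshold, and fell under it without GM replicate 3 (0.52) or DM replicate 3 (0.57). FASN, the fatty acid synthase, was 9.13 to 9.58 FPKM in GM and 8.73 to 9.74 in DM, and ACLY, which supplies cytosolic acetyl-CoA, was 34.9 to 37.2 and 34.0 to 38.6, so the groups of both genes overlapped.

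The spread within DM also ran across the route. DM replicate 2 was the highest DM library for 6 of the 8 genes and for 6 of the 9 other enzymes, against 32.5% of all tested genes, and DM replicate 3 was the lowest for 6 of the 8 and for 6 of the 9, against 28.8%. SREBF2 was highest in DM replicate 2 as well, but INSIG1 was highest in DM replicate 1, at 5.52 FPKM, with 5.06 in replicate 2 and 4.51 in replicate 3. In DM replicate 2 the summed proliferation markers were highest of the DM libraries, at 21.9 FPKM, with MKI67 at 1.2 FPKM against 0.772 and 0.712, and the summed myotube markers were lowest, at 1580 FPKM. Whether these levels had a part in the spread was not tested. In GM, replicate 3 was lowest for 5 of the 8 genes and for 3 of the 9 other enzymes, beside 44.5% of all tested genes, and it was highest for 5 of the 9, beside 35.0% of all.

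**Figure D3:**
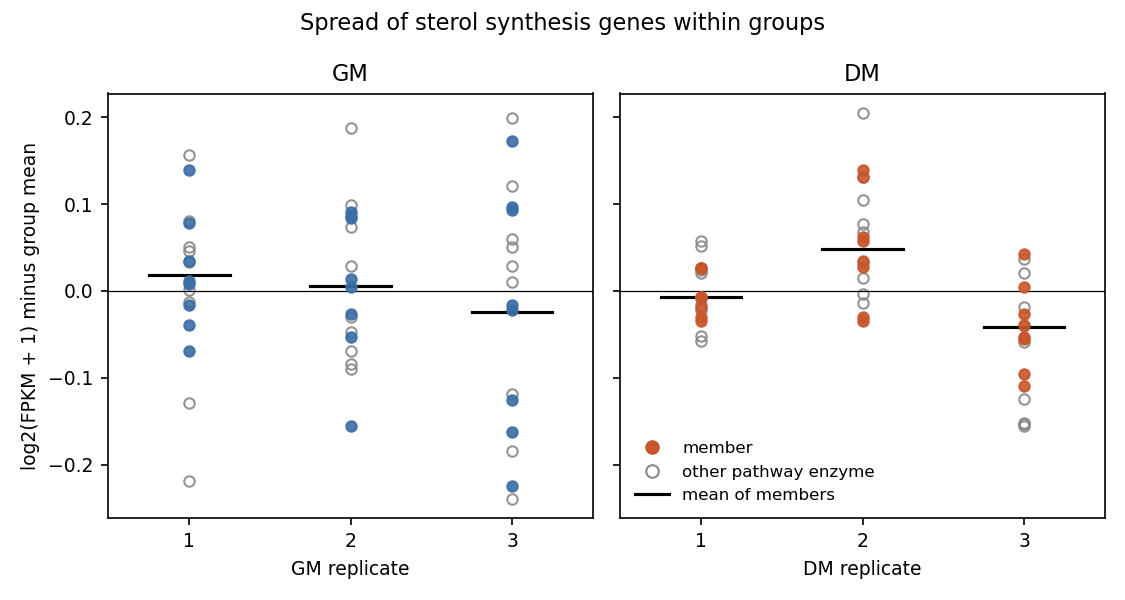
Deviation of each library from its own group's mean on the log2(FPKM + 1) scale, for the 8 genes (filled), the 9 other enzymes (open) and the mean of the 8 (bar), with GM left and DM right. In DM the mean of the 8 is highest in replicate 2 and lowest in replicate 3, while single genes spread further.

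The genes whose profile over the 6 input libraries came nearest to the mean profile of the 8, by Euclidean distance of log2(FPKM + 1) less the GM mean, were MYH3 (0.0569), ABCA6 (0.0666), SYNJ2 (0.0800), MFAP5 (0.104) and DKK3 (0.113). With 2 states of 3 libraries each, the distance mostly measures the size of the DM against GM difference, and these 5 genes had log2 differences of 1.27 to 1.31. None of the 5 belonged to the lists of sterol genes, and the 8 genes themselves ranked from 178 (MSMO1) to 9961 (MVK) among the tested genes.

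The m6A lists gave 1 set of peaks for each state, with the enrichment of the immunoprecipitate over the input pooled over libraries and therefore no replicate error and no test between states. The 8 genes had 3 peaks in GM and 8 in DM. Genes of the 8 with a peak numbered 3 in GM (HMGCS1, FDPS and SQLE), where 70.9% of all tested genes had one, and 6 in DM, where 78.7% did. ACAT2, IDI1 and MSMO1 had a peak in DM only, as did 10.1% of tested genes and 12.7% of the 236 genes whose log2 difference in expression exceeded 1. CYP51A1 and MVK had no peak in either state, as did 19.0% of tested genes. Detection of a peak depends on the reads over a transcript, and the part of expression in the DM-only peaks was not tested.

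SQLE carried the broadest peaks. Its 5′ UTR peak covered 803 nt in GM (chr14:15166767-15167569) with a fold enrichment of 3.90 and 1011 nt in DM (chr14:15166708-15167718) with 3.88, a DM over GM ratio of 0.995 while SQLE mRNA differed 5.33-fold. A further SQLE peak, of 209 nt at the very end of the 3′ UTR (chr14:15144664-15144872), was listed in DM only, with an enrichment of 2.08. FDPS had the same 359 nt peak, in 2 exon blocks reaching the 3′ end of the transcript (chr3:15311058-15311940), in both states, with an enrichment of 4.10 in GM and 3.31 in DM, a ratio of 0.807.

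HMGCS1 had a weak 3′ UTR peak of 91 nt in each state, at chr20:31453697-31453787 in GM with an enrichment of 1.41 and at chr20:31453667-31453757 in DM with 1.29, a ratio of 0.915 over 61 shared nt. A stronger HMGCS1 peak of 570 nt (chr20:31453967-31454536), with an enrichment of 2.04, lay 2335 bases before the transcript end and was listed in DM only. The remaining peaks were weak. IDI1 had a DM peak of 412 nt in 4 exon blocks annotated to exon 1 of 5 (chr13:46325598-46326836) with an enrichment of 1.52, and MSMO1 a DM peak of 239 nt in 2 blocks, annotated to the 3′ UTR (chr17:530447-533399), with 1.51. ACAT2 had a DM peak of 61 nt in its last exon, exon 9 of 9 (chr9:96044394-96044454), with an enrichment of 1.21. That peak ended 269 bases before the transcript end and so lay outside the stretch shared with TCP1.

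Measured against the lists, only the peaks of FDPS and the 5′ peak of SQLE were near or above the middle. The median enrichment was 3.27 over 19739 GM peaks and 3.38 over 20790 DM peaks, and the DM peaks of ACAT2, HMGCS1, IDI1 and MSMO1 exceeded 1.64% to 24.6% of the DM list. In none of the 3 shared peaks of the 8 genes did enrichment change over 1.5-fold, beside 25.0% of the 10239 shared peaks of all genes. All 3 ratios were below 1, beside 42.9% of all shared peaks.

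The 9 other enzymes had 14 peaks in GM and 13 in DM. TM7SF2, some of whose listed peaks overlap each other, held 5 and 4 of these. A peak was listed in GM for 6 of 9, beside 70.9% of all tested genes, and in DM for 7 of 9, beside 78.7%. DHCR7 had the strongest peak of these enzymes, in its 3′ UTR, at 10.1 in GM and 11.2 in DM. That DM peak, of 839 nt, also overlapped another GM peak, at 2.22. The 3 shared peaks of the other enzymes, paired 1 to 1, also stayed within 1.5-fold, with ratios of 0.853 for FDFT1 and 0.902 and 0.881 for LSS. Peaks of DHCR7, MVD, PMVK and TM7SF2 also overlapped between the states, but not 1 to 1, and have no ratio here. SC5D had a peak in DM only, and HSD17B7 and LBR had none. SREBF2 had 1 shared peak with a ratio of 0.798 and another with 2.54, from an enrichment of 1.74 to 4.42. The latter pair differed in width, with 61 nt in GM and 210 nt in DM, and the shared 61 nt were 29.1% of the DM peak.

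**Figure D4:**
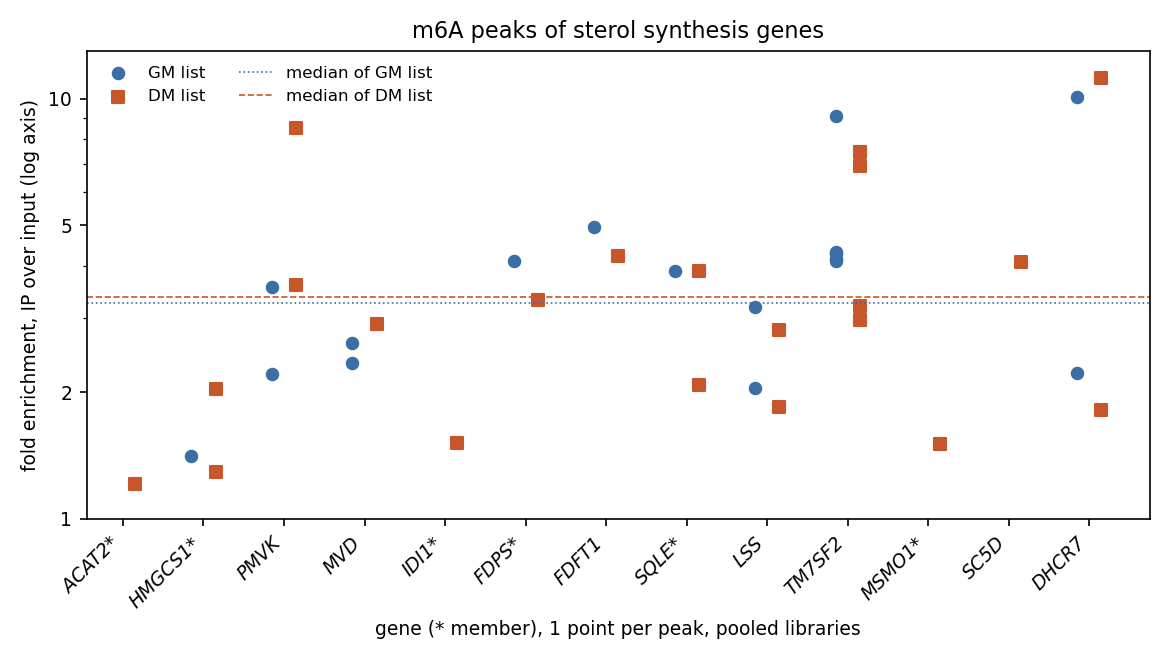
Fold enrichment of immunoprecipitate over input (log axis) for every m6A peak of the sterol synthesis genes reported here, circles for the GM list and squares for the DM list, with asterisks at the genes described and lines at the list medians of 3.27 and 3.38. ACAT2, HMGCS1, IDI1 and MSMO1 lie below both lines in every peak, and FDPS and SQLE are the only genes of the 8 with a peak above a line.

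**Figure D5:**
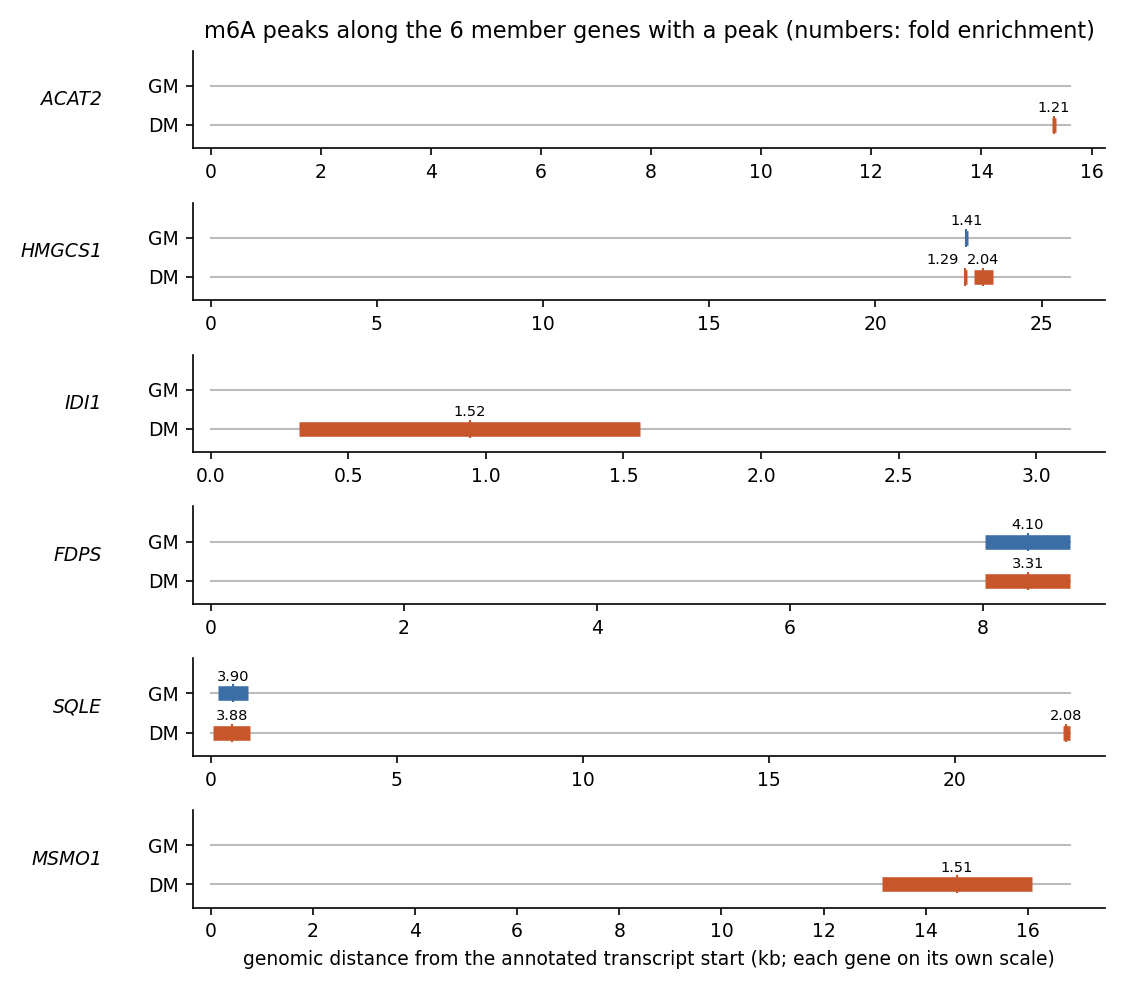
Position of each peak along 6 of the 8 genes, as genomic distance in kb from the annotated transcript start, with bars from the first to the last exon block (introns included) and the fold enrichment above each; every gene has its own scale. SQLE alone has a peak at both ends in DM, and the HMGCS1, FDPS, MSMO1 and ACAT2 peaks lie toward the 3′ end.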

How the data were processed

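The authors sequenced input and m6A-immunoprecipitated RNA from 3 GM and 3 DM samples each (12 libraries). According to the study's methods, reads were mapped to ARS-UCD1.2 with HISAT2 and genes quantified with StringTie, and the submitters' processing notes also name fastp, cutadapt, HOMER and ChIPseeker. The deposited FPKM values per gene and input library hold no counts, so no counting interval could be given, and the read totals that the study states were not used here. m6A peaks were called with exomePeak per the study's methods, and the deposited lists give 1 row per peak and state with a fold enrichment (ratio of IP to input), a p-value and a log10 false discovery rate. The p-values in these lists compare IP with input and were not used to compare states. Columns of the authors' own comparisons were not used. The expression table covers the 29 autosomes.

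The 12302 of 18436 genes averaging 0.5 FPKM or more were compared with limma 3.58.1 in R 4.3.3 (variance trend) on log2(FPKM + 1), two-sided, DM minus GM. Fold changes on this scale understate the change of low genes. The study's thresholds made the calls (fold change above 1.5, p under 0.05 before adjustment), and Benjamini-Hochberg adjusted p-values are over all tested genes. On simulated data with normal noise on the same log2 scale, 99.5% of 200 planted changes were called, as were 25 unchanged genes. The planted changes lay well above the fold threshold, so the simulation does not measure how calls near it behave. The study calls the 3 libraries of a state biological replicates, but its methods name a single animal and the labels do not say whether cultures were separate, so p-values measure only the spread between these libraries, which may be technical. Peaks were paired where exactly 1 GM and 1 DM peak shared 1 base or more of exon block sequence on 1 strand. Named genes are the 8 members, every other enzyme of the route that is reported, the called genes of each further list (or the 2 most abundant where none was called), the 5 genes nearest in profile, and all member peaks. PMVK, GGPS1, SREBF1, FASN and ACLY, which did not pass, and single marker genes were named for their place in the pathway after their values were seen. FADS1 and ACSS2, which did not pass either, were also named after their values were seen. The members and lists were chosen with earlier results of these data known. Alternatives were another pseudocount, other filters, TPM, size factors, a replicate block, no variance trend, other thresholds and leaving out each library. No genome sequence was used, and no sequences are shown. Some genes of the lists are not reported here and are left out of the list counts.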

Additional observations from a re-analysis of the deposited data

How the results depend on the processing

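The 3 libraries per state come from 1 source, the FPKM values carry no counts and the peak lists have no replicate error. The median log2 difference of the 8 genes, 1.63, was 1.72 with a pseudocount of 0.1, 1.81 in TPM and 1.69 with size factors, and 1.57 to 1.67 leaving out each library in turn (lowest without GM replicate 3). TPM moved the median of all tested genes from -0.05 to 0.06. Relative to it, the 8 genes stood at 1.69 in FPKM and 1.76 in TPM. The split of all called genes was 603 higher and 858 lower in FPKM, 970 and 792 in TPM, and 679 and 718 with size factors. At an adjusted p under 0.05 without a fold threshold it was 1980 and 3288, and at a fold change over 2 it was 232 and 275. The count of other enzymes called higher, 4, was 2 at a fold change over 2, 5 in TPM and 6 at an adjusted p under 0.05 without a fold threshold. The count called lower, 1 (LBR), was 0 in TPM, with size factors and at a fold change over 2, and 0 to 1 leaving out each library in turn (0 without GM replicate 2). MVD was called in TPM (0.62), as was FADS1 (0.60), and ACSS2 with a pseudocount of 0.1 (0.59). Among the differences printed, direction turned only in 3 genes near 0: FASN (0.081 in TPM, 0.022 with size factors), ACLY (-0.046 to 0.043 leaving out each library in turn, negative without GM replicate 1, GM replicate 3 or DM replicate 2) and CYP27A1 (-0.014 to 0.038, negative without GM or DM replicate 2). Deviations of the same replicate number in GM and DM did not correlate positively (-0.0792, -0.123 and -0.208), and no library correlated best with its own number. Deviations of a gene sum to 0 within each state, so these small correlations cannot settle whether replicates were paired in culture. With a replicate block, 4 other enzymes were called higher and 1 lower, and 608 and 865 of all genes.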
